A study of Mus musculus with 8 samples.

Results

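The vacuolar ATPase (V-ATPase) genes described here are the 8 genes for the widely expressed subunits of its V1 sector (Atp6v1a, Atp6v1b2, Atp6v1c1, Atp6v1d, Atp6v1e1, Atp6v1f, Atp6v1g1 and Atp6v1h) and the 2 genes for its accessory proteins (Atp6ap1 and Atp6ap2). They were taken from the table by name, and the names were picked with earlier results of these data known. All 10 of 10 were listed among the 14506 genes of the liver table, and 10 of 10 passed the filter on low values, which kept 11174 genes. RNA had been measured in whole livers of 8 mice on a C57BL/6 background, 4 of them Rragc +/+ and 4 Rragc S74N/+. Rragc encodes the GTPase RagC, which recruits the growth kinase mTORC1 to the lysosome when nutrients are plentiful, and S74N is an activating substitution that was introduced with CRISPR and is carried on 1 allele in every cell. The mice were young, since the study asked whether organs already differ before old-age inflammation sets in. Rragc +/+ replicates 1 to 3 were 3 months old and replicate 4 was 2.5 months old. Rragc S74N/+ replicates 1 and 2 were 3 months old, replicate 3 was 2.5 months old and replicate 4 was 2 months old. Values below are listed by replicate, from 1 to 4, within each genotype. Sex and feeding state at sampling are not given in the sources used here.

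The V-ATPase is a rotary proton pump. Its V1 sector faces the cytosol and hydrolyses ATP, and its membrane-bound V0 sector carries the protons, which acidifies lysosomes and endosomes. On the lysosome the pump also binds the Ragulator and Rag GTPase complex, and it thereby takes part in amino acid sensing by mTORC1. Many V-ATPase genes are targets of TFEB, a transcription factor of lysosomal genes that active RagC and mTORC1 hold in the cytoplasm by phosphorylation. TFEB binds a short palindrome, CACGTG, best with set flanking bases.

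Promoters are shown for the catalytic subunit gene and for 2 members that represent the opposed patterns over the livers described below, because the palindrome is the letter pattern that TFEB binds. The RefSeq promoter table on GRCm38.p6 held 6 of the 10 members, without Atp6v1b2, Atp6v1c1, Atp6v1g1 and Atp6v1h. Each line gives the 250 bases before the RefSeq transcript start, 5′ to 3′ on the strand of the gene, with CACGTG in capitals. The Atp6v1a window is chr16:44139260-44139509 on the minus strand, that of Atp6v1e1 is chr6:120822699-120822948 on the minus strand, and that of Atp6ap1 is chrX:74296847-74297096 on the plus strand. In the GENCODE M21 annotation used for the gene positions given further on, transcripts of Atp6v1a and Atp6v1e1 also begin farther upstream, so the Atp6v1a window lies inside the annotated gene and the Atp6v1e1 window overlaps it in part.
Atp6v1a: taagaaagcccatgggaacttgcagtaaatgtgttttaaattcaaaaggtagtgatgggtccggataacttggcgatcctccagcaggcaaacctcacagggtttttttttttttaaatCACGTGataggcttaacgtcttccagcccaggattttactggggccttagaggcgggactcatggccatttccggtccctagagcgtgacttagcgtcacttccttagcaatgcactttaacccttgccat
Atp6v1e1: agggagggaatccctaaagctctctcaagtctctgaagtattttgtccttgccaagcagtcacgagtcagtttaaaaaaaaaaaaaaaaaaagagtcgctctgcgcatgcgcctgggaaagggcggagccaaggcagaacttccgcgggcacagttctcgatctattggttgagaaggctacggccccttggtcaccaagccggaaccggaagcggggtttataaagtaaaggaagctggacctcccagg
Atp6ap1: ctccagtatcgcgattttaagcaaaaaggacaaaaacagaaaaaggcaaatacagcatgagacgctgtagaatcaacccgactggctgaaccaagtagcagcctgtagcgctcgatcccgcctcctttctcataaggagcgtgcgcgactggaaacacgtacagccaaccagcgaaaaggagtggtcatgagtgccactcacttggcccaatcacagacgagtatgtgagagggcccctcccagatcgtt
The letters CACGTG, which read the same on both strands, occurred in 1 of the 6 member promoters, that of Atp6v1a, with their first base 131 bases before the RefSeq start and inside the GENCODE gene. Of all 32851 promoters of this length, 6.02% held them. The longer palindrome TCACGTGA, which contains the shorter one, was also found in 1 of 6, again Atp6v1a, against 0.785% of all promoters. The same letters extended by G in front and C behind, 10 bases in all, were found in 0 of 6, against 0.24%. A match describes the letters of this window and not a bound site.

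Whole reads recovered from the deposited values ranged from 4313076 to 6632108 per liver, and each member was represented by 13 to 1551 reads in a liver. Hepatocyte markers were found in all livers. Their summed normalized counts (counts scaled for library size), carried by the most abundant of them, were 216184 to 319558 in Rragc +/+ and 234541 to 422878 in Rragc S74N/+. The marker Tat was lower and ranged from 77.3 to 1520 over the livers. Kupffer cell markers summed to 2925 to 4715 and 2816 to 4877 and endothelial markers to 904 to 1247 and 908 to 1210, and these sums, which abundant markers dominate, overlapped between genotypes. Within the 9 Kupffer markers, Marco, a scavenger receptor, was at 20.5 to 25.5 in Rragc +/+ and 37.9 to 125 in Rragc S74N/+ (limma adjusted p 0.846, DESeq2 adjusted p 0.0041). Adgre1, also of that list, and the endothelial markers Lyve1 and Pecam1 had higher means in Rragc S74N/+ at unadjusted limma p of 0.0397, 0.0169 and 0.0151. Mean log2 levels were higher in Rragc S74N/+ for 6 and lower for 3 of the 9 Kupffer markers. Of the 5 endothelial markers, 3 were higher and 2 lower. Stellate cell markers summed to 276 to 430 in Rragc +/+ and 392 to 630 in Rragc S74N/+, with overlap. Of the 4 tested, 3 were higher, among them Col1a1 at an unadjusted limma p of 0.0307. Cholangiocyte markers summed to 153 to 394 and 117 to 380. B and plasma cell markers summed to 82.3 to 142 in Rragc +/+ and 190 to 280 in Rragc S74N/+, without overlap, and to 35.5 to 83.9 and 63.5 to 112, with overlap, when the immunoglobulin gene Igkc was left out. Of 9 kidney markers 5 were listed, and their sum of 86.3 to 185 in Rragc +/+ and 26.7 to 60.6 in Rragc S74N/+ was carried by Kap, at 67.9 to 163 and 6.69 to 46.2. The other 4 summed to 18.4 to 24.2 and 13.3 to 25.7. No marker of these lists was at 0 in all livers. In bulk tissue, fewer cells of a type and less RNA per cell cannot be told apart. Rragc itself was at 84.1 ± 20.4 normalized counts (mean ± s.d., n = 4) in Rragc +/+ and 76.6 ± 7.32 in Rragc S74N/+, and a total per gene does not show which allele it came from.

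Did the V-ATPase genes differ between the genotypes? Members past the threshold numbered 0 of 10 (limma on log2 values, Benjamini-Hochberg adjusted p under 0.05 over all tested genes), where the background was 0.00895% of tested genes. The quasi-likelihood test of edgeR and DESeq2, run on the recovered reads, also called 0 of 10, against 0.00895% and 0.0896% of the genes they tested. At an unadjusted p under 0.05 each of the 3 tools gave 1 of 10, Atp6ap1, lower in Rragc S74N/+. The background at that level was 5.17% of tested genes with limma, 2.8% lower and 2.37% higher in Rragc S74N/+, and 5.53% with edgeR and 6.05% with DESeq2. Members whose genotype groups did not overlap numbered 0 of 10, against 2.94% of tested genes, 1.64% lower and 1.3% higher in Rragc S74N/+. Log2 fold changes, given throughout as Rragc S74N/+ minus Rragc +/+, were positive for 7 members and negative for 3, and their median was 0.011 beside 0.012 over all tested genes. The median of their absolute size was 0.19, beside 0.26 over all tested genes.

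The members fell into 2 sets of equal number by the size of the difference. For Atp6v1a, Atp6v1c1, Atp6v1d, Atp6v1e1 and Atp6v1f it was under 0.1 on the log2 scale in either direction. For Atp6v1b2, Atp6v1g1, Atp6v1h, Atp6ap1 and Atp6ap2 it was over 0.3. No share under 0.1 or over 0.3 was taken for all tested genes, whose median absolute difference was 0.26. The 2 sets also differed in spread within genotypes, which is not a separate trait. With few livers per genotype, a wider spread can give a larger difference by sampling alone. By within-genotype s.d. of log2 values, the first set was at percentiles 0.0179 to 11.2 of tested genes and the second at 41.1 to 95.1. The summed level of the 10 members was 3420 to 4078 normalized counts in Rragc +/+ and 3351 to 4221 in Rragc S74N/+.

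**Figure D1:**
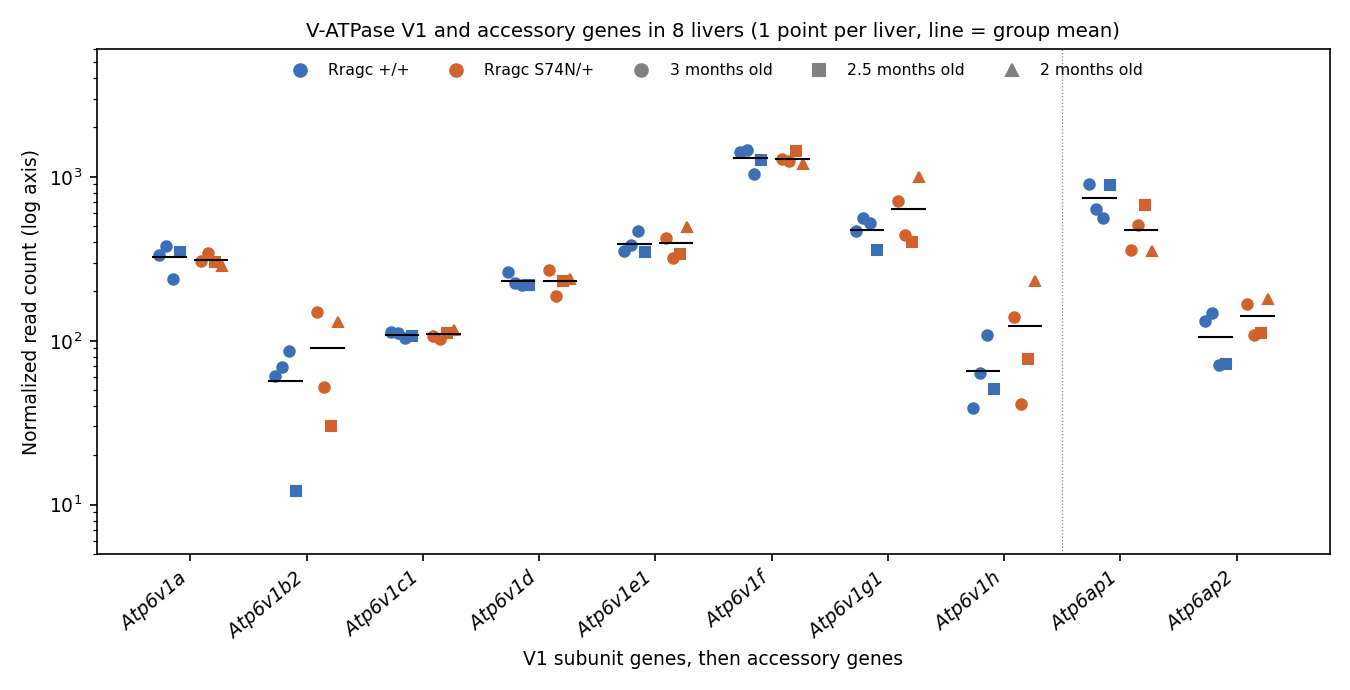
Normalized read count (log axis) of the 8 V1 subunit genes and, right of the dotted line, the 2 accessory genes, with 1 point per liver, colour for genotype, shape for age and a black line for each group mean. Atp6v1c1 points lie close together, between 102 and 116, and those of Atp6v1b2 spread from 12.1 to 150, while for Atp6ap1 3 of 4 Rragc S74N/+ livers lie below all Rragc +/+ livers.

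The catalytic head of V1 is built from alternating A and B subunits. Atp6v1a encodes subunit A, which binds and hydrolyses ATP, and lies at chr16:44085402-44139705 on the minus strand (GRCm38, as are all gene positions). Its normalized counts were 336, 377, 239 and 348 in the Rragc +/+ livers and 308, 344, 304 and 286 in the Rragc S74N/+ livers. All Rragc S74N/+ values lay inside the Rragc +/+ range, which was set by replicates 2 and 3 of that genotype. Means were 325 ± 59.8 and 310 ± 24.4 (s.d., n = 4 per genotype). The log2 difference was -0.05 with a 95% interval of -0.49 to 0.39, and the exact two-sided permutation test over 70 labellings of the livers gave p = 0.771.

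Atp6v1b2 (chr8:69088646-69113711, plus strand) encodes the widely expressed isoform of subunit B. It was at 60.6, 69.2, 86.3 and 12.1 normalized counts in the Rragc +/+ livers and at 150, 52.4, 30.1 and 130 in the Rragc S74N/+ livers. The lowest level of each genotype was in its 2.5-month-old mouse, Rragc +/+ replicate 4 and Rragc S74N/+ replicate 3, and 2 of 4 Rragc S74N/+ livers, replicates 1 and 4, were above all Rragc +/+ livers. Highest and lowest liver differed 12.3-fold, the widest span among the members. Means were 57.1 ± 31.8 and 90.5 ± 58.1 (n = 4 per genotype), with a log2 difference of 0.68, an interval of -0.63 to 1.99 and an exact permutation p of 0.486. This difference rested on 1 liver, since without Rragc +/+ replicate 4 it was 0.07, while without Rragc S74N/+ replicate 3 it was 1.11. The gene overlaps Slc18a1 on the opposite strand, and reads had been counted by strand.

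Subunits A and B form the head in equal numbers, but their transcripts were not at equal levels. Because the kit reads only the 3′ end of each transcript, read counts follow transcript copies without a correction for length, although capture efficiency can still differ between genes. Atp6v1a exceeded Atp6v1b2 in 8 of 8 livers, by 4.31-fold in the mean over livers. Per liver, the ratio of Atp6v1a to Atp6v1b2 was 2.77 to 28.7 in Rragc +/+ and 2.06 to 10.1 in Rragc S74N/+, and these ranges overlapped (exact permutation p = 0.457, two-sided, n = 4 per genotype).

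The central rotor of V1 consists of subunits D and F. Atp6v1d (chr12:78840725-78861638, minus strand) was at 264, 224, 219 and 218 normalized counts in Rragc +/+ and at 270, 188, 232 and 238 in Rragc S74N/+. Atp6v1f (chr6:29467718-29470512, plus strand) was the highest member in every liver, at 1411, 1451, 1045 and 1271 in Rragc +/+ and 1291, 1243, 1430 and 1199 in Rragc S74N/+. Neither rotor gene separated the genotypes. For Atp6v1d the means were 231 ± 21.9 and 232 ± 33.5 and the interval of the log2 difference was -0.44 to 0.43, and for Atp6v1f they were 1294 ± 183 and 1291 ± 99.9 with an interval of -0.39 to 0.40 (n = 4 per genotype). The ratio of Atp6v1f to Atp6v1d had a median of 5.59 in Rragc +/+ and 5.6 in Rragc S74N/+.

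The peripheral stalks hold the head still while the rotor turns, and they contain subunits E and G. Atp6v1e1 (chr6:120794305-120822793, minus strand) was at 352, 383, 465 and 349 normalized counts in the Rragc +/+ livers and at 426, 322, 340 and 491 in the Rragc S74N/+ livers. Its highest livers were Rragc S74N/+ replicate 4 and Rragc +/+ replicate 3, and the groups overlapped. Means were 387 ± 54.1 and 395 ± 78.7, with an interval of -0.43 to 0.46 for the log2 difference. It overlaps Slc25a18 on the opposite strand and a microRNA gene, Gm25193, on its own. Atp6v1g1 (chr4:63544772-63550750, plus strand) was at 470, 557, 519 and 358 in Rragc +/+ and at 708, 439, 399 and 997 in Rragc S74N/+. Replicates 1 and 4 of Rragc S74N/+ were above all Rragc +/+ livers, and replicates 2 and 3 were within the Rragc +/+ range. The means of 476 ± 86.6 and 636 ± 277 (n = 4 per genotype) gave a log2 difference of 0.34, an interval of -0.28 to 0.95 and an exact permutation p of 0.40. Without Rragc S74N/+ replicate 4, the only 2-month-old mouse, the difference was 0.09.

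Subunits C and H sit where V1 meets V0. Subunit C leaves the pump when V1 and V0 come apart, and subunit H inhibits ATP hydrolysis by free V1. Atp6v1c1 (chr15:38661933-38692446, plus strand) was at 113, 112, 103 and 107 normalized counts in Rragc +/+ and at 107, 102, 111 and 116 in Rragc S74N/+. It had the smallest spread of the members, with a coefficient of variation of 4.46% over the 8 livers, where counting error alone would give 9.54% at its 73 to 142 reads. Only 2 of the 11174 tested genes had a lower within-genotype s.d. on the log2 scale. A spread below counting error does not measure how steady the level was in the livers. Means were 109 ± 4.6 and 109 ± 5.81 (n = 4 per genotype), and the interval of the log2 difference was -0.44 to 0.45.

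Atp6v1h (chr1:5070018-5162529, plus strand) was at 39.2, 63.6, 109 and 50.5 normalized counts in the Rragc +/+ livers and at 140, 40.9, 76.9 and 232 in the Rragc S74N/+ livers. Here too Rragc S74N/+ replicates 1 and 4 were above all Rragc +/+ livers, and the other two were inside the Rragc +/+ range. Means were 65.5 ± 30.6 and 122 ± 83.6 (n = 4 per genotype), with a log2 difference of 0.72, an interval of -0.31 to 1.74 and an exact permutation p of 0.286. Without Rragc S74N/+ replicate 4 the difference was 0.32. The gene overlaps Rgs20 on the opposite strand. The ratio of Atp6v1h to Atp6v1c1 ran from 0.347 to 1.05 in Rragc +/+ and from 0.40 to 2.0 in Rragc S74N/+ (exact permutation p = 0.257, n = 4 per genotype).

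The accessory proteins are needed to assemble the pump. Atp6ap1 encodes Ac45, a membrane protein bound to V0, and lies at chrX:74297097-74304721 on the plus strand. Its normalized counts were 901, 634, 563 and 888 in the Rragc +/+ livers and 357, 511, 678 and 352 in the Rragc S74N/+ livers. Replicates 1, 2 and 4 of Rragc S74N/+ were below all Rragc +/+ livers, and replicate 3, at 678, was above Rragc +/+ replicates 2 and 3. Means were 747 ± 173 and 475 ± 154 (n = 4 per genotype), a ratio of 0.636, and the exact two-sided permutation test gave p = 0.0857, where the smallest p of this design is 0.0286. The log2 difference was -0.68 with an interval of -1.23 to -0.13. Atp6ap1 did not pass the threshold across all genes, with a limma p of 0.0200 that became 0.846 after Benjamini-Hochberg adjustment. DESeq2 gave an adjusted p of 0.689 and edgeR one of 0.812. Unlike those of Atp6ap1, the values of Kap, Marco and Igkc did not overlap between the genotypes, where 2.94% of tested genes had such groups. Kap was lower and the others were higher in Rragc S74N/+, and their part in the Atp6ap1 difference was not tested. With single livers left out, the log2 difference ran from -0.87 to -0.55, and the unadjusted limma p was over 0.05 in 4 of the 8 fits, at 0.0674 without Rragc +/+ replicate 1, 0.0585 without Rragc +/+ replicate 4, 0.0624 without Rragc S74N/+ replicate 1 and 0.0559 without Rragc S74N/+ replicate 4.

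Atp6ap2, the gene for the (pro)renin receptor, lies on the same chromosome at chrX:12587801-12617049 on the plus strand. It was at 132, 148, 70.7 and 71.9 normalized counts in Rragc +/+ and at 167, 108, 111 and 180 in Rragc S74N/+. Means of 106 ± 40.2 and 142 ± 37.2 (n = 4 per genotype) gave a log2 difference of 0.46, an interval of -0.20 to 1.12 and an exact permutation p of 0.257. The difference was 0.30 without Rragc +/+ replicate 3, 0.31 without Rragc +/+ replicate 4 and 0.65 without Rragc +/+ replicate 2. The accessory genes thus had differences of opposite sign, of which neither passed the threshold. The ratio of Atp6ap1 to Atp6ap2 was 4.29 to 12.4 in Rragc +/+ and 1.95 to 6.08 in Rragc S74N/+, and its ranges overlapped (exact permutation p = 0.0857, n = 4 per genotype).

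**Figure D2:**
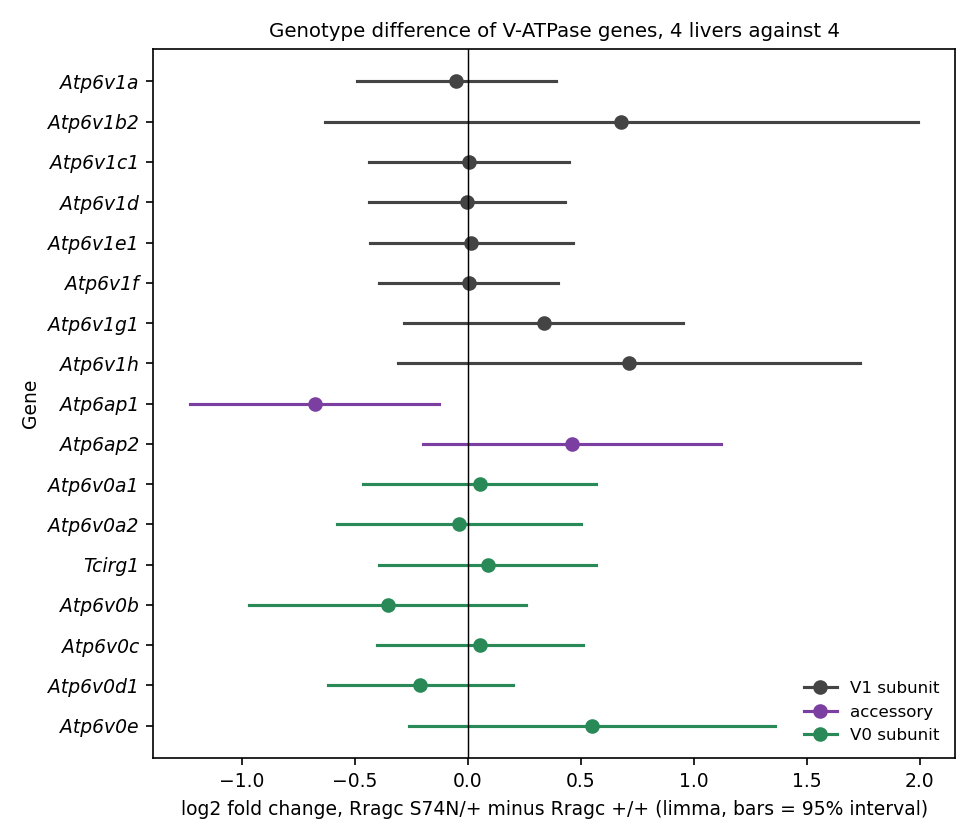
Log2 fold change of normalized counts, Rragc S74N/+ minus Rragc +/+, from limma with 95% intervals as bars, for the 8 V1 subunit genes (grey), the 2 accessory genes (purple) and the 7 tested V0 genes (green). Of the 17 intervals, that of Atp6ap1, from -1.23 to -0.13, is the one that does not include 0, and it is not adjusted for the number of genes tested.

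By mean level over the 8 livers the members ranked Atp6v1f (1293 normalized counts), Atp6ap1 (611), Atp6v1g1 (556), Atp6v1e1 (391), Atp6v1a (318), Atp6v1d (232), Atp6ap2 (124), Atp6v1c1 (109), Atp6v1h (93.9) and Atp6v1b2 (73.8), a span of 17.5-fold. These are levels of 3′-end reads per gene, with the limit on capture stated above. Among neighbours in this order, ranges over the livers did not overlap for Atp6v1f over Atp6ap1 (2.12-fold in the mean) and Atp6v1d over Atp6ap2 (1.87-fold). Atp6v1g1 exceeded Atp6v1e1, and Atp6v1a exceeded Atp6v1d, in 8 of 8 livers although their ranges overlapped. At the lower end Atp6ap2 exceeded Atp6v1c1 in 5 of 8 livers, Atp6v1c1 exceeded Atp6v1h in 5 of 8 and Atp6v1h exceeded Atp6v1b2 in 4 of 8, so that their order was not settled beyond the spread. The members stood between percentile 48.3 (Atp6v1b2) and 95.5 (Atp6v1f) of tested genes by mean level.

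How steady were the levels? The within-genotype s.d. of log2 values placed Atp6v1c1 at percentile 0.0179 of all tested genes, Atp6v1f at 2.85, Atp6v1d at 3.36, Atp6v1a at 7.92 and Atp6v1e1 at 11.2. These percentiles were taken over tested genes of all levels, without matching on read depth, and counting error is smaller for higher genes. For Atp6v1c1 the spread over the livers was below counting error, with the limit stated above. Atp6ap1 was at percentile 41.1 and Atp6v1g1 and Atp6ap2 at 54.0. Atp6v1h was at 87.5 and Atp6v1b2 at 95.1. The variable members were not only the low ones, since Atp6v1g1 had a coefficient of variation of 37.5% where counting error alone gives 4.18%, and Atp6ap1 had 34.4% against 4.05%. For Atp6v1b2 it was 63.6% against 11.5%, and for Atp6v1h 69.95% against 10.2%.

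Did the members vary together over the livers? Across the 45 pairs of members the median Pearson r of log2 values over 8 livers was 0.31, and 0.32 after centring on the genotype means, beside -0.002 over all pairs of tested genes. Pairs with r of at least 0.7 numbered 6 of 45, or 13.3%, against 5.81% of all pairs, and those with r of -0.7 or less numbered 3, or 6.67%, against 5.53%. All pairs share the same 8 libraries, so these values are descriptions.

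Atp6v1e1, Atp6v1g1, Atp6v1h and Atp6v1b2 made up the pairs with the highest r. Atp6v1e1 and Atp6v1h had r = 0.89 (Spearman's rho 0.74, n = 8 livers), which was 0.97 after centring on genotype and 0.80 without the 2 livers farthest from the median of the first gene. Atp6v1b2 and Atp6v1g1 had r = 0.85 (rho 0.95), and 0.88 without such livers, and Atp6v1e1 and Atp6v1g1 had r = 0.82 and 0.86. The r of 0.84 between Atp6v1g1 and Atp6v1h rested on 2 livers, being 0.31 without them, and so did the r of 0.77 between Atp6v1a and Atp6v1f, at 0.12 without them. Atp6v1a, the catalytic subunit, did not follow this group, with r of -0.69 to Atp6v1e1 and -0.63 to Atp6v1h.

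**Figure D3:**
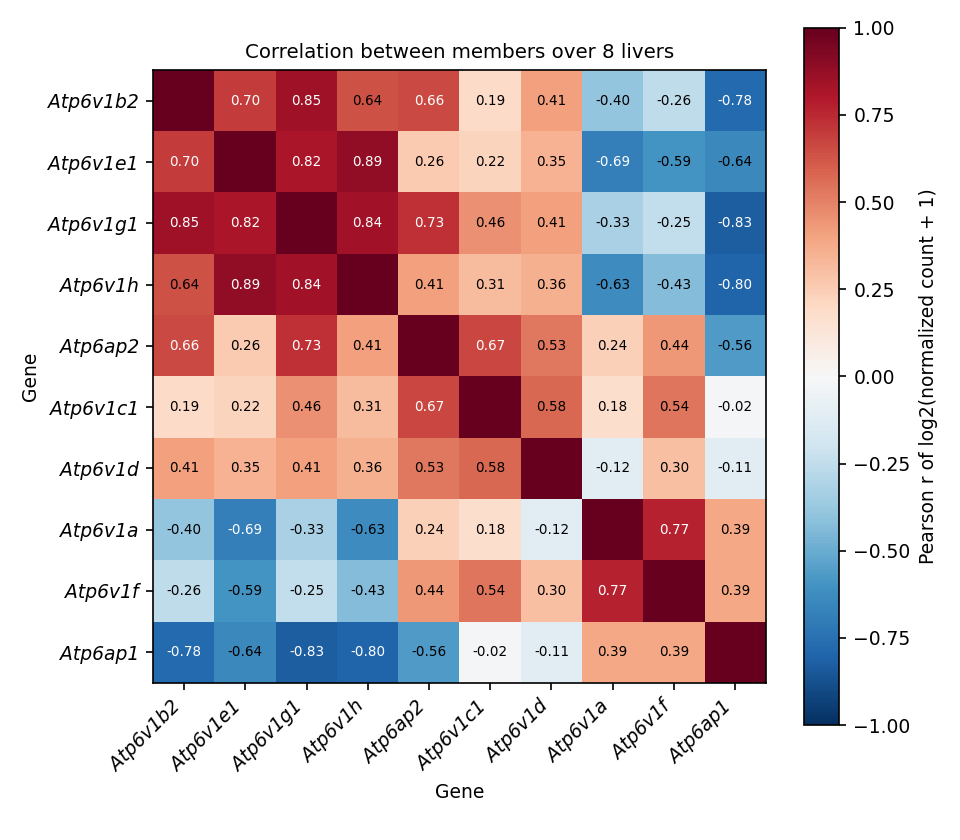
Pearson r of log2(normalized count + 1) over the 8 livers for each pair of the 10 members, from blue (-1) through white (0) to red (1). A red block joins Atp6v1b2, Atp6v1e1, Atp6v1g1 and Atp6v1h, with r from 0.64 to 0.89, and Atp6ap1 is blue against all 4, from -0.83 to -0.64.

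Atp6ap1 ran opposite to that group. Its r was -0.83 with Atp6v1g1 (rho -0.71), -0.80 with Atp6v1h and -0.78 with Atp6v1b2 (n = 8 livers). After centring on genotype they were -0.85, -0.77 and -0.82. Without the 2 livers farthest from the median they were -0.44, -0.38 and -0.61. The livers with the lowest Atp6ap1, Rragc S74N/+ replicates 4 and 1 at 352 and 357 normalized counts, were those with the highest Atp6v1g1, at 997 and 708.

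**Figure D4:**
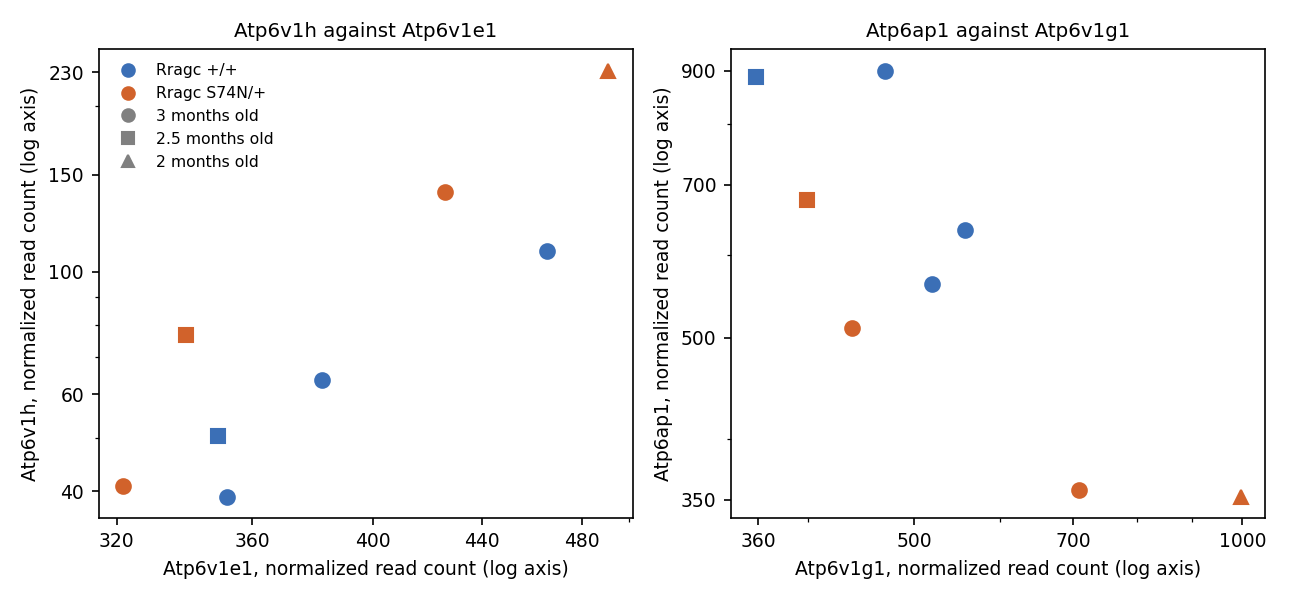
Normalized read counts on log axes, with 1 point per liver, colour for genotype and shape for age, for Atp6v1h against Atp6v1e1 (left, r = 0.89) and Atp6ap1 against Atp6v1g1 (right, r = -0.83). In both panels Rragc S74N/+ replicates 1 and 4 stand at or near an end, and the 4 livers of a genotype do not form a separate cloud.

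The order of livers in Atp6v1b2, Atp6v1g1, Atp6v1e1, Atp6v1h and, reversed, Atp6ap1 resembled the leading pattern among the most variable genes. The first principal component of the 500 most variable tested genes, which included 0 members, carried 45.9% of their variance. Its scores were -12.7, -2.77, 10.7 and -34.1 in the Rragc +/+ livers and 25.3, 1.48, -24.1 and 36.3 in the Rragc S74N/+ livers. The low end held the 2.5-month-old mice, 1 of each genotype. The 2 highest scores were those of Rragc S74N/+ replicate 4, the only 2-month-old mouse, and replicate 1, which was 3 months old. Over the 8 livers, r with this component was 0.93 for Atp6v1b2, 0.93 for Atp6v1g1, 0.79 for Atp6v1e1, 0.78 for Atp6v1h and -0.91 for Atp6ap1. The other members had r between -0.46 and 0.59, with Atp6v1c1 at 0.12 and Atp6v1d at 0.24. An absolute r of at least 0.7 was found for 5 of 10 members and for 32.0% of all tested genes. Of the 7 hepatocyte markers, 5 had r of at least 0.7 with the component, from 0.77 for Cps1 to 0.96 for Hnf4a, while Ttr had 0.42 and Apoa1 -0.67 (n = 8 livers). Of these 7, Tat was the 1 gene among the 500. The part of this shared order of livers in the genotype differences of Atp6v1b2, Atp6v1g1, Atp6v1h and Atp6ap1 was not tested.

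Age was uneven between the genotypes, and too few mice were younger than 3 months to tie any of these values to it. Both 2.5-month-old mice, 1 of each genotype, had the lowest Atp6v1b2 and Atp6v1g1 of their genotype, and the only 2-month-old mouse had the highest Atp6v1e1, Atp6v1g1, Atp6v1h and Atp6ap2 of all livers. The highest Atp6v1b2, at 150 normalized counts, was in a 3-month-old mouse, Rragc S74N/+ replicate 1. With 1 mouse at 2 months and 1 of each genotype at 2.5 months, age and animal cannot be told apart at those ages. In the 3-month-old mice alone, 3 Rragc +/+ and 2 Rragc S74N/+, the log2 difference of Atp6ap1 was -0.68 with a limma adjusted p of 0.834. The differences of Atp6v1b2, Atp6v1g1, Atp6v1h and Atp6ap2 were smaller there than in all 8 livers, at 0.31, 0.12, 0.22 and 0.27.

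Genes whose levels over the 8 livers were most like the mean log2 level of the 10 members were Ywhae (r = 0.98), Aak1 (r = 0.97) and Serpind1 (r = 0.97). Ywhae encodes a 14-3-3 adaptor protein, Aak1 a kinase of clathrin-coated pits and Serpind1 the thrombin inhibitor heparin cofactor II, which hepatocytes secrete. Without the 2 livers farthest from the median, r was 0.97, 0.93 and 0.96. The genes were picked for the highest r of all tested genes outside the members over these same livers. Such values are therefore a description and not a separate check.

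Other genes of the pump and its partners were read from the same limma fit. Of the V0 list of 10 genes, 9 were listed and 7 tested, with 0 past the threshold in either direction, 0 at an unadjusted p under 0.05 and a median log2 difference of 0.05. Atp6v0c, for the proton-carrying ring, was the highest of them at a mean of 2064 normalized counts, and 2 processed pseudogenes of it are annotated, so that its reads may be shared with these copies. Atp6v0a2, an isoform of the subunit through which protons enter and leave, was the lowest tested, at 106. Atp6v0d1, which couples rotor and ring, was the V0 gene whose groups did not overlap. It was at 297, 267, 255 and 336 in Rragc +/+ and at 253, 251, 237 and 253 in Rragc S74N/+, all of the latter below the former, where 2.94% of tested genes had groups that did not overlap. The log2 difference was -0.21 with an interval of -0.62 to 0.20, the limma adjusted p was 0.851, and the exact permutation p of 0.0286 was the smallest possible. Without Rragc +/+ replicate 4 the difference was -0.13, and in the 3-month-old mice alone it was -0.11.

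Of 5 alternative V1 isoforms only Atp6v1g2 was listed, a neuronal form of subunit G, at a mean of 13.6 normalized counts against 556 for Atp6v1g1. Of 14 gene names listed for assembly and regulation of the pump, 12 were tested. Among the tested genes 0 passed the threshold or had an unadjusted p under 0.05. Their median log2 difference was 0.04, with 6 of each sign. Oxr1, a member of a protein family that binds V1, was the highest tested at 275, and Tldc1 the lowest at 10.01. Of the Ragulator and Rag GTPase genes 8 were tested, 0 passed, 0 had an unadjusted p under 0.05 and the median was 0.02, between Lamtor1 at a mean of 713 and Lamtor3 at 33.7.

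Lysosomal ion channels and exchangers numbered 8 tested, of which 0 passed, with a median of -0.20. Mcoln1, the lysosomal calcium channel, had an unadjusted p under 0.05. It was at 112, 54.2, 48.1 and 74.7 normalized counts in Rragc +/+ and at 33.1, 39.1, 56.8 and 37.5 in Rragc S74N/+, where replicate 3 overlapped Rragc +/+. Its log2 difference was -0.73, with a limma adjusted p of 0.846 and an exact permutation p of 0.0857. Of the factors of the TFEB family 3 of 4 were tested, 0 passed, 1 had an unadjusted p under 0.05 and the median was -0.46. That was Tfeb itself, at 44.9 to 88.6 in Rragc +/+ and 27.9 to 43.5 in Rragc S74N/+, ranges that did not overlap. Its log2 difference was -0.81, and the limma p was 0.0181 and 0.846 after adjustment. The exact permutation p was 0.0286, which groups of 4 that do not overlap always give. Groups that did not overlap, lower in Rragc S74N/+, were found for 1.64% of tested genes, and an unadjusted limma p under 0.05 for 5.17%. These are transcript levels, and neither the place of TFEB in the cell nor pump activity was measured in the values used here.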

How the data were processed

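RNA of 8 whole livers was made into QuantSeq 3′ mRNA-Seq FWD libraries, which are primed on the poly(A) tail and keep strand. Alignment by the authors used TopHat2 2.0.10, Bowtie 1.0.0 and SAMtools 0.1.19 on GRCm38. HTSeq 0.6.1 then counted reads by strand on GENCODE genes, and DESeq scaled those counts for library size. The deposited signal is thus a normalized count for each gene in each liver. Every value (100%) was a whole multiple of the smallest value above 0 of its liver, within a tolerance of 1e-6, which gave back whole reads. No molecular identifiers are stated, so the counting errors given treat each read as a molecule.

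Genotypes were taken from the labels. Each library is labelled as a separate sample, and p-values weigh the genotype difference against the spread between these livers. Genes with a mean of at least 10 entered a limma 3.58.1 fit in R 4.3.3 on log2(normalized count + 1). Genotype was its single term, variances were moderated along a trend with the mean, and p-values were adjusted after Benjamini and Hochberg with a threshold of 0.05. Differences on this scale are understated for low genes. Recovered reads were given to edgeR 4.0.16 and DESeq2 1.42.0. Exact permutation tests of single values were two-sided. The other settings were other pseudocounts, filters and rescalings, array weights or no trend in limma, age as a term, 3-month-old mice alone, a threshold of 0.10, and leaving out each liver. The fits were tested on simulated data.

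Members and lists were chosen with earlier results of these data known. All 10 members are named. A gene of another list is named only where its unadjusted limma p was under 0.05, its groups did not overlap, or it was the highest or lowest of its list by mean, and Rragc and some hepatocyte markers were added after their values were seen. Gene positions are those of GENCODE M21, a neighbouring release of the one counted against.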

Additional observations from a re-analysis of the deposited data

Results flagged for a closer look

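In groups of 4 livers, a value was picked out when its gap to the nearest other value took a share of the range of the group above Dixon's 95% critical value. Of 28 groups examined for 14 genes, 2 held such a value, where chance gives about 1 in 20, or 1.4. Atp6v1d in Rragc +/+ replicate 1 was at 264 normalized counts, with the other livers of the genotype between 218 and 224. Atp6v0d1 in Rragc S74N/+ replicate 3 was at 237, with the others between 251 and 253.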

How the results depend on the processing

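Members past the threshold numbered 0, and V0 genes 0, under all 13 other settings, at the threshold of 0.10 and with each of the 8 livers left out. Over all genes, 1 passed in the reported fit, 0 without the trend, 0 with age as a covariate, 3 with age as a factor, 0 in 3-month-old mice alone, 10 with DESeq2, and 0 to 2 with single livers left out. The cause was not tested. Atp6v1b2, Atp6v1g1, Atp6v1h, Atp6ap1 and Atp6ap2 kept the sign of their log2 difference under every setting, but not its size. Over the settings other than leaving out a liver, Atp6v1b2 ran from 0.31 to 0.90, Atp6v1g1 from 0.12 to 0.43, Atp6v1h from 0.22 to 0.92 and Atp6ap2 from 0.27 to 0.47, and the lowest of each was in 3-month-old mice alone. Atp6ap1 ran from -0.79 to -0.59, with adjusted p from 0.253 to 0.9999 over these and the fits without single livers.

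Members with differences near 0 changed sign, still under the threshold. Atp6v1a was at 0.0619 in 3-month-old mice. Atp6v1c1 was at -0.0288 with array weights, -0.0184 with age as a covariate, -0.0239 with age as a factor and -0.0609 in 3-month-old mice. Atp6v1d was at 0.0060 with upper-quartile and 0.0052 with TMM rescaling, 0.0096 with edgeR and 0.0097 with DESeq2. Atp6v1e1 was at -0.0330 with age as a covariate, -0.0835 as a factor and -0.10 in 3-month-old mice, and Atp6v1f at -0.0642 with array weights and -0.0246 in 3-month-old mice. With single livers left out, Atp6v1a ran from -0.19 to 0.0286, Atp6v1c1 from -0.0222 to 0.0375, Atp6v1d from -0.0785 to 0.0936, Atp6v1e1 from -0.0965 to 0.107 and Atp6v1f from -0.0945 to 0.0628. The median of all genes moved by 0.0082 with upper-quartile rescaling, 0.0074 with TMM rescaling and 0.0137 with edgeR.

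No paired analysis was possible because numbers were given to livers in the order of their records and stand for no shared litter or day. With 4 livers per genotype the intervals of the steadiest members still span about 0.4 on the log2 scale in either direction, and Atp6v1b2, at 13 reads in its lowest liver, is also limited by depth.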
